A study of Mus musculus with 6 samples.

Results

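A group of 10 genes of the circadian clock and of its PAR bZIP output arm were examined in mouse hepatocytes that had received Sox4. They were Clock, Npas2, Per1, Per2, Per3, Cry1, Dbp, Tef, Hlf and Ciart, chosen by symbol, and they make up 10 of 53599 rows of the count table. All 10 were among the 12691 genes with enough reads to be tested. RNA was measured by bulk RNA-seq in 6 libraries, 3 called empty vector (EV) and 3 called Sox4, in a series that asked how the transcription factor SOX4 starts the conversion of hepatocytes toward biliary cells. All animals were male Rosa-LSL-Cas9-EGFP mice on a C57BL/6J background, described as 4 to 8 weeks old when injected. The Sox4 group received AAV8-TBG-HA-Sox4-P2A-Cre and the EV group AAV8-TBG-Cre (retro-orbital injection is stated for the Sox4 vector), and the labels give the genotypes as Sox4 and WT. Cre was thus present in both groups, where it turns on Cas9 and EGFP, and the TBG promoter restricts expression from the vectors to hepatocytes. Cells were taken on day 4 by liberase digestion and Percoll enrichment. The hour of the day and the feeding state at harvest are not given in the sources used here, so each of the 10 genes is shown library by library.

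The clock is a feedback loop of transcription factors. CLOCK, or its relative NPAS2, pairs with BMAL1 (gene Arntl) and binds E-boxes to switch on the Per and Cry genes, whose proteins return to the nucleus and inhibit that pair. In liver the loop drives a wave of output genes, among them the PAR bZIP factors DBP, TEF and HLF, which bind D-boxes in genes for drug and bile acid metabolism. Transcripts of Arntl and Npas2 peak at the opposite time of day from those of Dbp, Tef, Ciart and Nr1d1, and the latter rise and fall together.

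Library depth was even, with 15090629 to 16964860 counts per library. Sox4, the delivered gene, had 2, 0 and 3 counts in EV 1, EV 2 and EV 3 and 21697, 15097 and 11816 counts in Sox4 1, Sox4 2 and Sox4 3, which matches the labels. Levels are given as CPM, counts per 1e06 reads counted after scaling libraries by TMM (trimmed mean of M-values). Differences were tested with edgeR's quasi-likelihood test on the whole table, and p-values were adjusted over all 12691 genes with a threshold of 0.05. The response to Sox4 was broad, since 55.1% of the tested genes passed, 29.0% higher and 26.0% lower, and scaling mattered. Over the whole table the median log2 fold change was 0.04 on the TMM scale but 0.51 if libraries were scaled by their size alone, and a change smaller than this shift has no fixed direction. In bulk RNA, fewer cells of a type and less RNA per cell cannot be told apart. EV 1 stood apart from EV 2 and EV 3 in several of the genes below, and results that change without it are given with that value.

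Of the 10 genes, 2 passed the threshold, Clock and Per2, beside 55.1% of all tested genes, and both were lower in Sox4, beside 26.0%. For 2 of 10, the same genes, the groups did not overlap, beside 63.0% of all tested genes. Both shares lie under those of the whole table. The median log2 fold change of the 10 genes was -0.52, with 8 below 0 and 2 above. With library size alone the median was -0.05, neither Clock nor Per2 passed. There 2 of the 10 passed, Per1 and Hlf, both higher, beside 63.8% of all tested genes that passed and 51.0% that passed as higher. Without EV 1 the number on the TMM scale was 5 instead of 2, all lower, with Dbp (-1.54), Tef (-0.77) and Ciart (-1.70) joining Clock and Per2, beside 47.7% of all genes tested without EV 1 (22.9% lower).

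**Figure D1:**
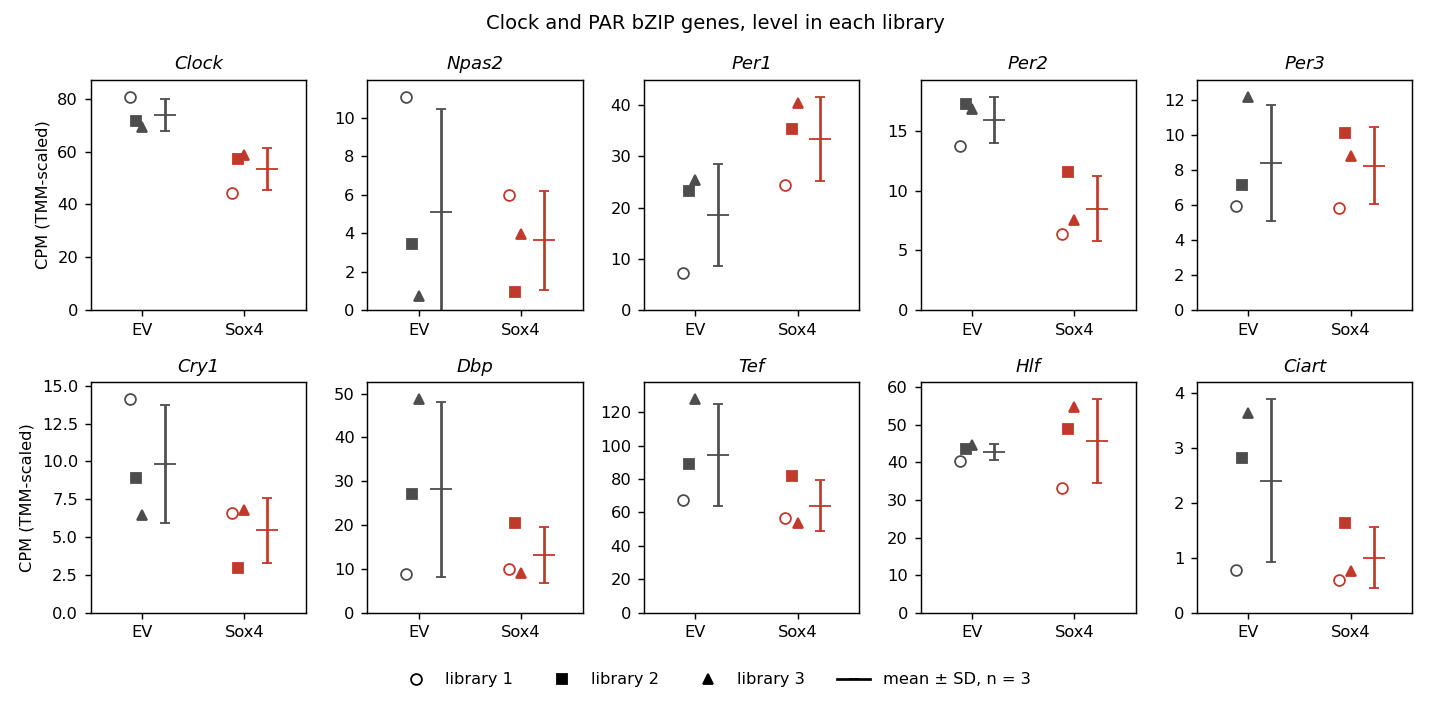
Level of each of the 10 genes in CPM (TMM-scaled, linear axes that start at 0) in the EV (grey) and Sox4 (red) libraries. Symbols mark the library number, by which libraries were not paired here, and bars are mean ± SD (n = 3), clipped at 0 for Npas2 in EV. Clock and Per2 are the panels in which the groups do not overlap.

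Clock encodes the bHLH-PAS partner of BMAL1 with acetyltransferase activity. It was read at 80.8, 71.5 and 69.3 CPM in EV 1 to EV 3 and at 44.2, 57.2 and 58.7 CPM in Sox4 1 to Sox4 3. Every Sox4 library lay below every EV library. The mean was 73.8 ± 6.1 CPM in EV and 53.4 ± 7.97 CPM in Sox4 (SD, n = 3), a log2 fold change of -0.47 (SE 0.15, edgeR adjusted p = 0.0136). The call depends on scaling, since with library size alone the log2 value was 0.000811 (adjusted p = 0.996). The raw counts, 941 to 1048 in EV and 882 to 1159 in Sox4, overlapped. When each library was left out in turn on the TMM scale, Clock passed every time, at -0.54 to -0.35.

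Npas2 encodes the factor that can stand in for CLOCK beside BMAL1. It was the most variable of the 10 within groups, and its within-group SD on the log2 scale exceeded that of 99.9% of tested genes. EV 1 held 11.1 CPM, EV 2 held 3.42 CPM and EV 3 held 0.726 CPM, a 15.3-fold range from counts of 144 down to 10. Sox4 1, Sox4 2 and Sox4 3 held 6.01, 0.919 and 3.95 CPM, a 6.54-fold range that lay inside that of EV. The log2 fold change in edgeR was -0.48 (SE 1.33, adjusted p = 0.713), and it was 0.80 without EV 1. In limma-voom the log2 fold change was -0.08, with a 95% interval from -2.20 to 2.04. No difference between groups was detectable, and the interval is too wide to call the levels alike.

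The period genes encode PER1, PER2 and PER3, of which PER1 and PER2 are the inhibitors that the loop needs. Their transcripts did not move alike. Per1 was at 7.24, 23.3 and 25.4 CPM in EV and at 24.4, 35.3 and 40.5 CPM in Sox4. EV 1 was low and the other EV libraries sat at the level of Sox4 1. The mean was 18.7 ± 9.94 CPM in EV and 33.4 ± 8.26 CPM in Sox4 (log2 fold change 0.84, SE 0.62, adjusted p = 0.160). With library size alone it was 1.31 and passed (adjusted p = 0.0381).

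Per2 went the other way. It was at 13.7, 17.2 and 16.8 CPM in EV and at 6.37, 11.6 and 7.55 CPM in Sox4, with no overlap. The mean was 15.9 ± 1.93 CPM in EV and 8.50 ± 2.74 CPM in Sox4 (log2 fold change -0.91, SE 0.27, adjusted p = 0.00701), and the call held whichever single library was left out, at -1.19 to -0.74. With library size alone Per2 was at -0.44 and did not pass (adjusted p = 0.116). Per3, which is not needed for rhythm but follows it, was at 5.93, 7.14 and 12.2 CPM in EV and at 5.81, 10.1 and 8.82 CPM in Sox4. The ranges of the groups overlapped over most of their width (log2 fold change -0.03, SE 0.39, adjusted p = 0.936). In limma-voom the log2 fold change of Per3 was -0.01, with a 95% interval from -0.69 to 0.67.

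Cry1 encodes the cryptochrome that represses CLOCK and BMAL1 late in the cycle. It stood at 14.1, 8.88 and 6.46 CPM in EV and at 6.57, 2.96 and 6.79 CPM in Sox4. EV 1 and EV 2 were above every Sox4 library and EV 3 was not. The log2 fold change of -0.85 (SE 0.50) missed the threshold (adjusted p = 0.0785), and it passed without EV 3 (-1.10). Ciart encodes CHRONO, a further repressor of the BMAL1 pair. Its levels were low, at 0.771, 2.81 and 3.63 CPM in EV and at 0.601, 1.63 and 0.760 CPM in Sox4, from counts of 10 to 50. The lowest EV library, EV 1, was at the level of Sox4 1 and Sox4 3. The log2 fold change was -1.27 (SE 0.75, adjusted p = 0.0908).

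The promoters of the repressor genes carry the elements through which the loop acts on itself, and the stretches that hold such elements are printed here because these genes are direct targets of it. RefSeq windows from 250 bases before to 50 bases after the transcription start (GRCm38.p6, not the GRCm39 build of the count table) were given for 9 of the 10 genes, 13 windows in all, and Per2 is named only. Capitals mark the canonical E-box CACGTG, the E'-box CACGTT or the D-box TTATGTAA, searched on both strands. Sequences run 5′ to 3′ on the strand of the gene.
Ciart, chr3:95882247-95882364, minus strand: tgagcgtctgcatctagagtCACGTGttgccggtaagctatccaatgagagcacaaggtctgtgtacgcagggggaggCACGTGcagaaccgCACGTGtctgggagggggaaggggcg
Per1, chr11:69098763-69098808, plus strand: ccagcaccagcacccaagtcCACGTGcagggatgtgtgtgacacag
Cry1, chr10:85185089-85185153, minus strand: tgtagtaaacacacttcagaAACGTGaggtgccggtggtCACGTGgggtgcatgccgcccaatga
Per3, chr4:151044796-151044890, minus strand: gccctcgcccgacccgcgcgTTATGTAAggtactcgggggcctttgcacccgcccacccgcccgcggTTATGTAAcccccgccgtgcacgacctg

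Ciart held 3 copies of CACGTG, at 116, 58 and 44 bases before its start, where 7.15% of all 32851 windows held at least 1 and 0.0883% held 3 or more. Per1 and Cry1 held 1 each, at 166 and 60 bases before the start, and Cry1 also held an E'-box, read on the opposite strand as AACGTG. Per3 held 2 copies of TTATGTAA, at 205 and 158 bases before the start, a number found in 0.0213% of windows. The SOX motif AACAAAG was in 0 of the 13 windows, against 5.85% of all windows. These matches describe letters in a short window. They do not show binding, and a missing match says nothing about elements farther away.

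Dbp, Tef and Hlf encode the PAR bZIP activators through which the clock reaches liver metabolism. Dbp, the most rhythmic of them in liver, was at 8.86, 27.0 and 48.7 CPM in EV, a 5.49-fold range. In Sox4 it was at 9.87, 20.4 and 9.07 CPM. EV 1 lay below all 3 Sox4 libraries, whereas EV 2 and EV 3 lay above them. The mean was 28.2 ± 19.9 CPM in EV and 13.1 ± 6.34 CPM in Sox4 (log2 fold change -1.10, SE 0.80, adjusted p = 0.204), and its within-group SD exceeded that of 98.4% of tested genes. The exons of Dbp overlap those of Sphk2 on the opposite strand over 18% of their length in GENCODE M21, and the strand setting of the counting is not given in the sources used here, so part of its counts may belong to that neighbour.

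Tef was at 67.3, 88.8 and 127.6 CPM in EV and at 56.9, 81.7 and 53.7 CPM in Sox4. Its libraries ranked within EV as those of Dbp did, over a narrower range. The log2 fold change was -0.56 (SE 0.33, adjusted p = 0.0841), and Tef passed as lower without EV 1 or without Sox4 2, at -0.77 in either. Hlf was nearly level in EV, at 40.4, 43.5 and 44.5 CPM, and spread wider in Sox4, at 33.3, 48.9 and 54.7 CPM (log2 fold change 0.09, SE 0.22, adjusted p = 0.671). With library size alone Hlf was at 0.56 and passed (adjusted p = 0.0159).

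The windows of Tef and Hlf that hold a motif are shown as those of the output genes. Tef held a canonical E-box in both of its windows. Hlf held none and had instead a cAMP response element, TGACGTCA, ending 2 bases before the start, a motif found in 1.79% of windows.
Tef, chr15:81802526-81802571, plus strand: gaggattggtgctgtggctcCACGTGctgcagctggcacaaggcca
Tef, chr15:81811256-81811301, plus strand: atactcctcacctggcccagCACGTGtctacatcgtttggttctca
Hlf, chr11:90390918-90390946, minus strand: tcggcgcgcggtgcgggcccTGACGTCAc

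The windows of Clock, Npas2 and Dbp held none of the motifs searched, which also included the D-box TTACGTAA and the ROR element core TAGGTCA, neither of them found in any of the 13 windows.

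**Figure D2:**
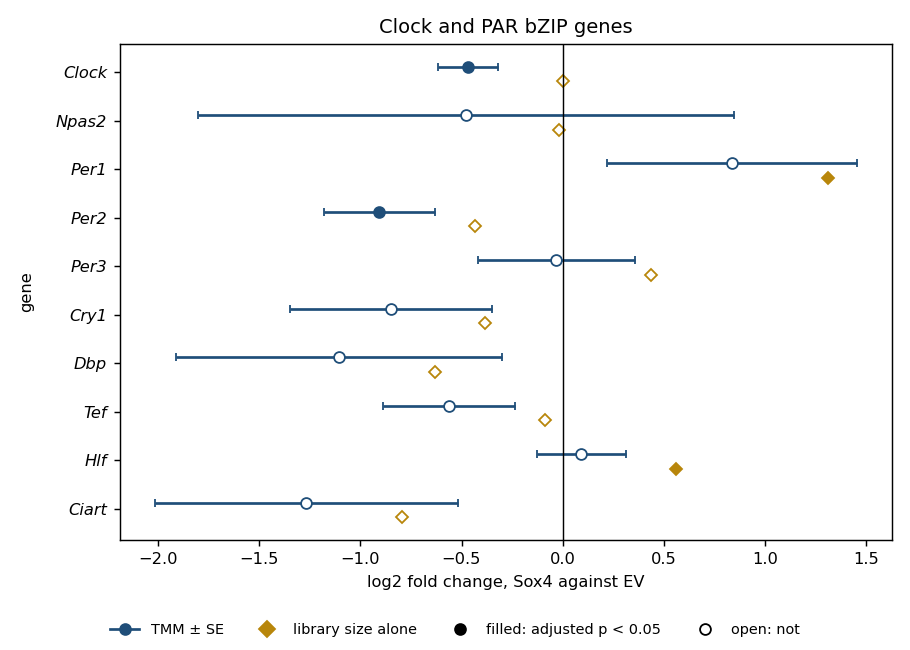
Fold change of the 10 genes, Sox4 against EV, on the log2 scale, with TMM (circles, bars are SE) and with library size alone (diamonds). Filled symbols passed the adjusted threshold of 0.05, which only Clock and Per2 did with TMM and only Per1 and Hlf with library size alone.

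Per length of annotated exon, the mean level in EV was highest for Tef (12.02 ± 3.88 CPM per kb), followed by Dbp (9.42 ± 6.66), Hlf (6.41 ± 0.323) and Clock (5.38 ± 0.444). Per1 (3.31 ± 1.77), Cry1 (2.94 ± 1.17) and Per2 (2.72 ± 0.330) came next, and Ciart (1.06 ± 0.651), Npas2 (1.06 ± 1.12) and Per3 (0.877 ± 0.346) were lowest, all in CPM per kb (SD, n = 3). The EV ranges of neighbours in this order overlapped except between Hlf and Clock, between Clock and Per1, and between Per2 and Ciart.

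The spread within groups had an order of its own. In EV, 4 transcripts (Clock, Npas2, Cry1 and the BMAL1 gene Arntl, which is not one of the 10) were highest in EV 1 and lowest in EV 3. Another 8 (Per1, Per3, Dbp, Tef, Hlf, Ciart and the repressor genes Nr1d1 and Nr1d2) were lowest in EV 1 and highest in EV 3. In Sox4, the library Sox4 2 was the lowest for Npas2, Cry1 and Arntl and the highest for Per2, Per3, Dbp, Tef, Ciart, Nr1d1 and Nr1d2. Sox4 1 was the highest for Npas2 and Arntl and the lowest for Clock, Per1, Per2, Per3, Hlf, Ciart and Nr1d2. Arntl, for example, was at 42.0, 23.8 and 11.7 CPM in EV and at 22.6, 5.01 and 16.0 CPM in Sox4 (log2 fold change -0.83, SE 0.84, adjusted p = 0.337). The library lowest for Npas2 and Arntl in each group, EV 3 or Sox4 2, was the highest for Dbp and Ciart. At the other end the groups differed. EV 1, the highest for Npas2 and Arntl, was the lowest for Dbp and Ciart. Sox4 1, the highest for Npas2 and Arntl, was the lowest for Ciart, but Sox4 3 was the lowest for Dbp, Tef and Nr1d1. These are descriptions of 6 libraries, with no test.

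**Figure D3:**
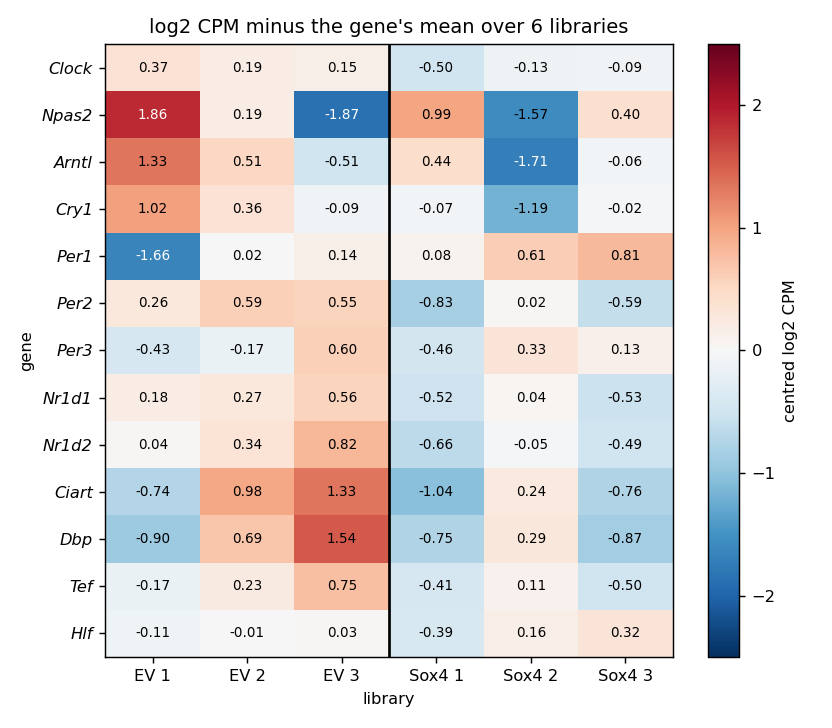
Log2 CPM of the 10 genes and of Arntl, Nr1d1 and Nr1d2 in each library, after subtraction of each gene's mean over the 6 libraries (red above the mean, blue below). EV 3 and Sox4 2, in blue for Npas2, stand at -1.87 and -1.57 there and at 1.54 and 0.29 for Dbp, and EV 1 stands at 1.86 for Npas2 and -0.90 for Dbp.

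Ratios of 2 genes inside a library do not depend on how libraries are scaled, and 8 of them were compared with exact permutation tests. With 3 libraries against 3 no ratio can reach a p below 0.1. The ratio of Per1 to Per2 counts was 0.529, 1.35 and 1.51 in EV and 3.82, 3.04 and 5.36 in Sox4. All 3 Sox4 libraries were above all 3 EV libraries, by 1.95 on the log2 scale (two-sided exact permutation p = 0.1, the smallest that this design allows, adjusted over 8 ratios p = 0.4). The difference lay between 1.47 and 2.23 when a library was left out. The ratio of Per1 to Per3 was 1.22, 3.25 and 2.08 in EV and 4.18, 3.48 and 4.59 in Sox4, again without overlap (difference 1.01 on the log2 scale, exact permutation p = 0.1, adjusted p = 0.4).

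The ratio of Dbp to Npas2 moved far more between libraries than between groups. It was 0.799, 7.84 and 63.9 in EV and 1.64, 21.7 and 2.29 in Sox4, highest in EV 3 and lowest in EV 1. The difference between groups was -0.77 on the log2 scale (exact permutation p = 0.7). For Npas2 to Clock, Dbp to Tef, Dbp to Hlf, Tef to Hlf and Cry1 to Per2 the groups overlapped too, with differences of 0.35, -0.35, -0.95, -0.60 and 0.07 on the log2 scale and exact permutation p-values of 0.3 to 0.9.

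**Figure D4:**
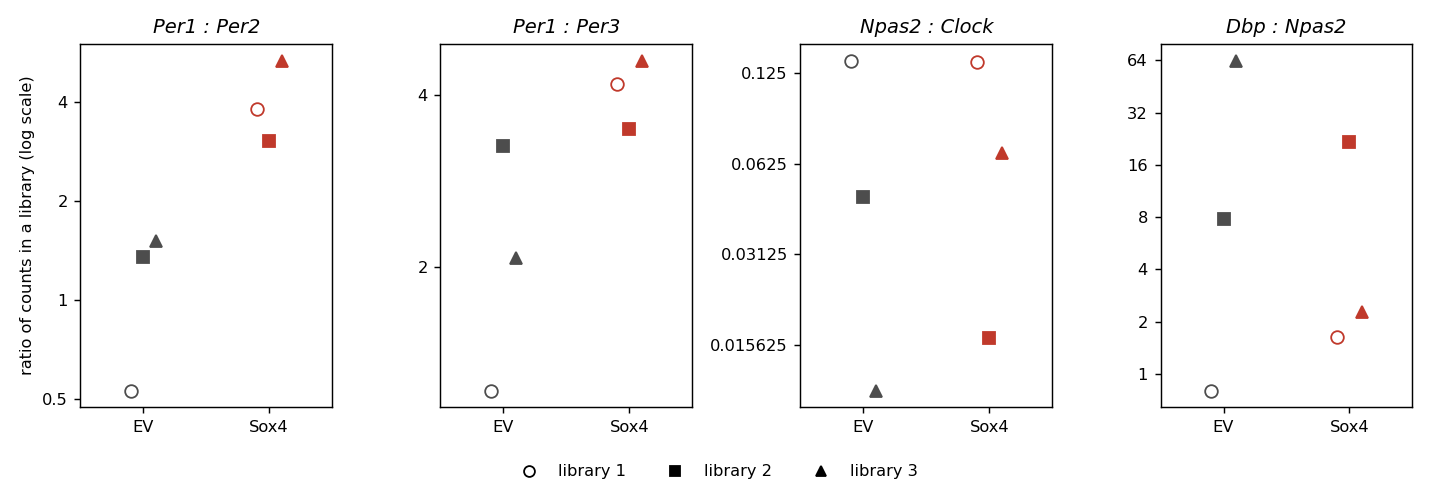
Ratio of the counts of 2 genes within each library, on log axes, for EV (grey) and Sox4 (red), with symbols for the library number. The ratio of Per1 to Per2 lies at 0.529 to 1.51 in EV and 3.04 to 5.36 in Sox4, while Dbp to Npas2 runs from 0.799 to 63.9 within EV.

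Beyond the 10 genes, 25 further genes of the clock machinery were followed, 11 of the core loop and 14 that modify clock proteins. Of these 24 could be tested and 11 passed, 5 higher and 6 lower, where 55.1% of all tested genes passed, 29.0% higher and 26.0% lower. In the core loop 10 of 11 could be tested, and Rorb had no count in any library, which allows up to 0.231 CPM. Lower were Nr1d1 (-0.66, adjusted p = 0.0104) and Nr1d2 (-0.81, adjusted p = 0.0129), which encode the REV-ERB repressors of Arntl, and Bhlhe40 (-0.83, adjusted p = 0.0250), a repressor at E-boxes. None of these passed with library size alone, at -0.19, -0.34 and -0.36. Higher was Arntl2 (1.20, adjusted p = 0.0250), a relative of Arntl, at no more than 2.94 CPM in any library. It did not pass without EV 2 (0.94), EV 3 (1.19), Sox4 2 (1.13) or Sox4 3 (1.06). Nr1d2 did not pass without Sox4 1 (-0.69), nor did Bhlhe40 without EV 3 (-0.56) or Sox4 1 (-0.64). The exons of Nr1d1 overlap those of Thra on the opposite strand over 8.55% of their length.

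Among the 14 modifiers 6 passed, 4 higher and 2 lower, beside 55.1% of all tested genes. Csnk1e, which encodes the casein kinase 1 epsilon that phosphorylates PER proteins, changed most among them. It had 56, 78 and 67 counts in EV and 648, 630 and 612 in Sox4, or 5.03 ± 0.817 CPM against 31.9 ± 0.774 CPM (log2 fold change 2.66, SE 0.13, adjusted p = 1.46e-06). It was 3.13 with library size alone. Fbxl21 (0.79), which encodes an F-box protein that acts on cryptochromes, Fbxw11 (0.41), whose ubiquitin ligase acts on phosphorylated PER, and the deacetylase gene Sirt1 (0.59) were higher. Prkaa2 (-0.40), which encodes a catalytic subunit of AMPK, and Cipc (-0.44), which encodes an inhibitor of CLOCK, were lower, and neither passed with library size alone. Fbxl21 passed only without Sox4 2 when a library was left out and lay at 0.65 without EV 1, 0.88 without EV 2, 0.80 without EV 3, 0.79 without Sox4 1 and 0.51 without Sox4 3. Fbxw11 did not pass without EV 1 (0.34), EV 2 (0.41) or Sox4 2 (0.30), nor Prkaa2 without EV 3 (-0.32) or Sox4 2 (-0.40).

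Of the 24 tested genes, 9 were higher and 1 lower with library size alone, where 51.0% of all genes were higher and 12.8% lower. On the TMM scale the number that passed was 7 without EV 3, beside 49.5% of all tested genes. The number higher was 3 without EV 1, 2 without EV 2, 3 without EV 3 and 3 without Sox4 2, against 5 with all libraries. Of all tested genes 24.8%, 23.8%, 26.1% and 24.5% were higher in those fits, in that order.

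**Figure D5:**
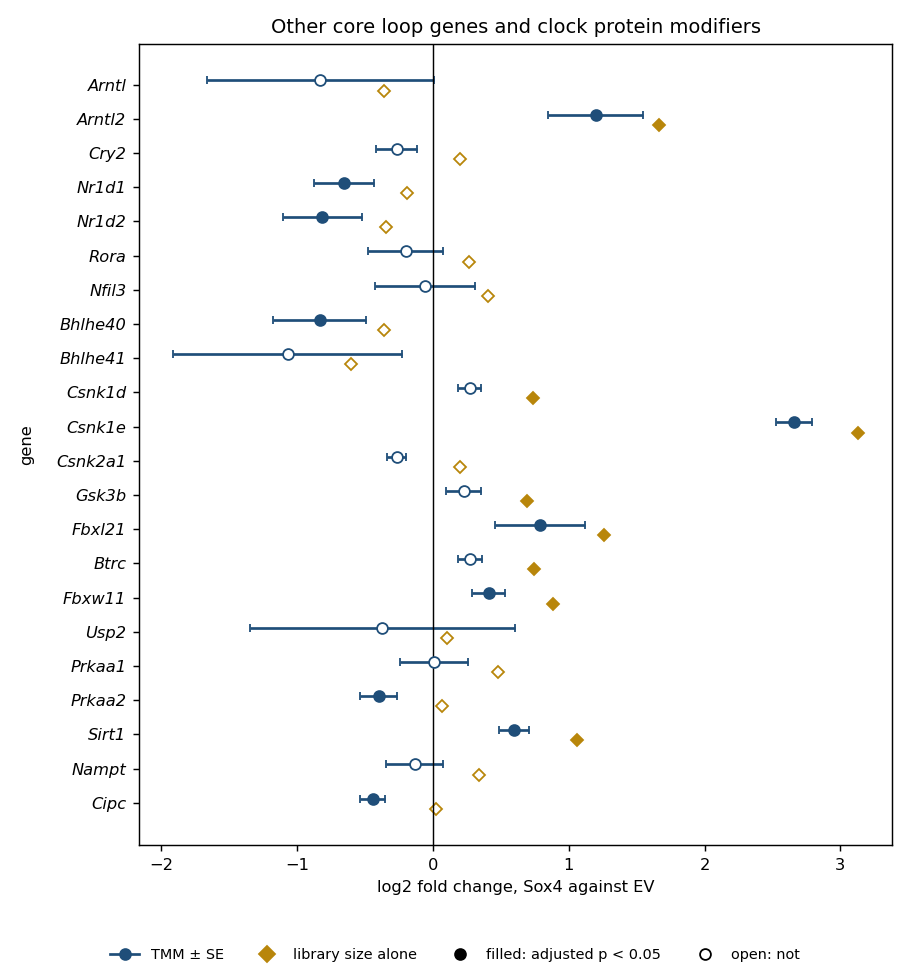
Fold change of tested genes of the core loop and of the clock protein modifiers, Sox4 against EV, on the log2 scale, with TMM (circles, bars are SE) and with library size alone (diamonds). Filled symbols passed the adjusted threshold of 0.05. Csnk1e lies farthest to the right (2.66), and Nr1d1 and Nr1d2 lie left of 0 on either scale.

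Known targets of the PAR bZIP factors in liver were then followed. Of 11 listed genes 10 could be tested, and 4 were higher and 3 lower, where 29.0% and 26.0% of all tested genes were, with a median log2 fold change of 0.46. Nr1i3, which encodes the xenobiotic receptor CAR, fell from 29.3 ± 4.48 to 7.07 ± 0.592 CPM (-2.05, SE 0.15, adjusted p = 7.64e-06), although 74.9% of its exon length overlaps Tomm40l on the opposite strand. The P450 genes Cyp2c37 (-1.79) and Cyp2c50 (-3.38) were lower too. Por (0.69), which encodes the reductase that serves P450 enzymes, Cyp2a5 (1.26), Cyp2a4 (4.07) and Cyp2b10 (2.51) were higher. Cyp2a4, at 3.39, 106.8 and 41.1 CPM in EV, did not pass without EV 3 (3.93), Sox4 1 (4.20), Sox4 2 (3.87) or Sox4 3 (4.13), and Cyp2a5 did not without Sox4 1 (1.20). The Cyp2a, Cyp2b and Cyp2c genes belong to families of near-identical copies, and how reads that fit several copies were counted is not given in the sources used here.

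Alas1, the rate-limiting enzyme of haem synthesis and a target of the PAR bZIP factors, was at 63.1, 387 and 483 CPM in EV and at 199, 475 and 418 CPM in Sox4. EV 1 was the lowest library, as it was for Dbp, and the groups overlapped (0.23, SE 1.01, adjusted p = 0.828). Among 8 other rhythmic liver transcripts 4 were lower and 1 was higher, beside 55.1% of all tested genes that passed. Rgs16, a regulator of G protein signalling, was at 11.8, 83.0 and 131 CPM in EV and at 1.90, 4.50 and 6.59 CPM in Sox4 (-4.12, SE 1.18, adjusted p = 0.0235). With a library left out Rgs16 passed only without EV 1, and it lay at -4.06 without EV 2, -3.47 without EV 3, -3.77 without Sox4 1, -4.15 without Sox4 2 and -4.55 without Sox4 3. Upp2, a uridine phosphorylase, fell from 252 ± 114 to 22.6 ± 6.81 CPM (-3.48, SE 0.45, adjusted p = 3.29e-04). Avpr1a (-2.19), the vasopressin receptor, and Gys2 (-0.77), the liver glycogen synthase, were lower as well, the latter not with library size alone, and Tsku (0.84), a secreted hepatokine, was higher. Rgs16, Upp2 and Avpr1a also passed as lower with library size alone.

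Genes whose centred profile over the 6 libraries was most like that of a member were sought among the 9025 genes that averaged 100 counts or more. For Npas2 the nearest was Foxq1, with a root mean square difference of 0.65 on the log2 scale, followed by Arntl (0.68) and Gm43305 (0.71). For Dbp they were Arhgef26 (0.46), Gm14403 (0.47) and Slc10a2 (0.52), and for Per1 they were Coq10b (0.19), Hamp (0.25) and Ankrd12 (0.28).

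The labelled cell type was borne out by its markers, with the 5 hepatocyte genes (Alb, Apoa1, Ttr, Apob and Fga) summing to 107500 CPM or more in each EV library and to 77530 CPM or more in each Sox4 library, and 3 of 5 lower. Markers of other cell types were at low levels. The 5 Kupffer cell markers summed to 7.32 to 18.5 CPM in EV, against 18.1 to 47.3 CPM with Sox4 (2 of 5 higher), and the 5 stellate and fibroblast markers to 8.32 to 43.2 and 71.8 to 132 CPM (1 of 2 tested higher). The stellate sum was mostly Reln, at 7.09 to 37.5 CPM in EV against 50.8 to 126 CPM with Sox4, and Dcn did not pass (adjusted p = 0.0504). The 6 cholangiocyte markers summed to 10.02 to 21.9 and 48.5 to 59.0 CPM (2 of 3 tested higher, Epcam and Spp1), with Krt7 and Krt19 at 0 in every EV library. Spp1 made up most of the Sox4 sum, at 35.2 to 41.4 CPM, and Sox9 did not pass (edgeR adjusted p = 0.618). The paper follows such genes as markers of reprogramming and reports EPCAM protein in labelled cells of hepatocyte origin after Sox4 delivery. The 5 endothelial markers summed to 12.2 to 18.5 and 10.02 to 22.2 CPM (Kdr and Clec4g higher, Stab2 lower). The 4 erythroid markers summed to 93.0 to 126 CPM in EV, against 4.97 to 15.5 CPM with Sox4. The fall was that of Alas2 alone (-3.45, edgeR adjusted p = 6.87e-04), which made up nearly all of the EV sum. The globin genes had few counts and did not fall. Hbb-bs had 3, 0 and 5 counts in EV and 13, 22 and 9 in Sox4. Hba-a1 had 2, 2 and 2 counts in EV and 4, 11 and 8 in Sox4, and Hba-a2 was at 0 in every EV library. The 5 lymphoid and neutrophil markers summed to 0.771 to 2.05 and 1.40 to 4.29 CPM, with overlap. Within EV, the Kupffer sum was 7.32, 15.3 and 18.5 CPM and the stellate sum 8.32, 25.1 and 43.2 CPM in EV 1, EV 2 and EV 3, which is also the order of Dbp, Tef and Ciart in these libraries. In Sox4 1 to Sox4 3 the Kupffer sum was 18.1, 38.3 and 47.3 CPM, which is not their order there. The stellate sum was 131, 132 and 71.8 CPM, the order of Dbp and Tef but not of Ciart. Per1 and Hlf had the order of the Kupffer sum in both groups. The part of other cell types in the results above was not tested.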

How the data were processed

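Bulk RNA-seq of hepatocytes from 3 EV and 3 Sox4 animals was analysed, grouped by the sample labels. Reads had been aligned to GRCm39 with STAR 2.7.10b and counted per gene with featureCounts 2.0.1, per the labels, and the deposited values are raw counts. The annotation release, strand setting and handling of multi-mapping reads are not given in the sources used here. The authors also deposited a normalized signal, the counts divided by DESeq2 median-of-ratios size factors (constant per library within 9.6e-10).

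The count table was tested with edgeR 4.0.16 in R 4.3.3 (filterByExpr with a minimum count of 10 and minimum total of 15, TMM, robust quasi-likelihood F test, no covariate) over 12691 genes, with Benjamini-Hochberg adjustment and a threshold of 0.05. The SE of a log2 fold change came from the SDs of log2 CPM in the groups (prior count 2), and 95% intervals are from limma 3.58.1 (voom). Ratios used counts plus 0.5. A count of 3 corresponded to 0.15 to 0.231 CPM, and floors cover counting error only. P-values measure the spread between these animals. Pairs of libraries of a group differed beyond counting noise (chi-square per degree of freedom 17.6 to 62.7). Exon lengths and overlaps are from GENCODE M21 and promoters from RefSeq, both on GRCm38, so no coordinates of the counts' build are given. DESeq2 1.42.0, limma, other scalings and filters, the replicate block and leaving out each library were the alternatives. The script was tested on simulated data.

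The members, gene lists and tests were chosen with earlier results of these data known. All 10 members are named. Some genes of the wider clock list are counted in its totals but are not reported here. Of each other list at most 6 genes are named with values, except among the PAR bZIP targets. They are in listed order with those past the threshold first, an order set after their values were seen. Among the PAR bZIP targets Cyp2c50 and Alas1 were added beyond that limit, also after their values were seen.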

Additional observations from a re-analysis of the deposited data

How the results depend on the processing

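Under the alternatives 149 values of single genes were recomputed. In 125 neither sign nor call changed, and 14 passed the threshold anew with the same sign. The call was lost in 2, Clock (with a change of sign) and Per2, both with library size alone, and 8 others changed sign with no call in either fit. Against 2 of the 10 clock and PAR bZIP genes past the threshold with TMM, there were 5 with no filter on low counts. All 5 were lower, Cry1, Tef and Ciart besides Clock and Per2, beside 31.8% of all 24036 genes then tested (13.8% lower). With the replicate block 5 passed (1 higher, Per1, and 4 lower), beside 58% of all tested genes (30.4% higher, 27.6% lower). With library size alone 2 of the 10 were higher and 0 lower, and of the wider clock list 9 were higher and 1 lower. There 51.0% of all tested genes were higher and 12.8% lower, and the change follows from the shift of all genes by that scaling. When each library was left out in turn, 2 to 5 of the 10 genes passed, 2 to 5 of them lower and 0 higher. In the same fits 45.6% to 55.6% of all tested genes passed, 23.8% to 28.7% higher and 21.8% to 26.9% lower. Of the wider list 7 to 10 passed, 2 to 5 of them higher and 4 to 7 lower. An addition made after the values were seen left out each library for the other lists. Then 5 to 8 of the PAR bZIP targets passed, 4 to 5 of the rhythmic outputs and 3 to 5 of the temperature-responsive genes. Of the glucocorticoid-responsive genes 4 to 5 passed, and of the fasting and cAMP genes 4 to 7. All of these stand beside the same 45.6% to 55.6% of all tested genes.

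Values on the other side of 0 were Clock at 0.000811 and Per3 at 0.438 with library size alone, and Per3 at 0.0218 with upper quartile scaling, 0.00797 with no filter and 0.000392 with limma on the deposited normalized values. With a library left out, Npas2 lay at -1.06 to 0.795, Per3 at -0.245 to 0.319 and Hlf at -0.0554 to 0.271. So did the log2 ratios of Npas2 to Clock (-0.61 to 1.21), Dbp to Npas2 (-2.37 to 0.791) and Cry1 to Per2 (-0.292 to 0.71). Apart from library size, the cause was not tested. Cry1 also passed with DESeq2 (-0.853, adjusted p = 0.0494).

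Libraries with the same number had deviations from their group means that correlated at 0.273, -0.0898 and 0.131. Libraries with different numbers had correlations of -0.272 to 0.177. The ranges overlap, so these values do not settle whether replicate numbers pair the libraries. With the replicate block Per1 (0.963, adjusted p = 0.0133), Cry1 (-0.861, adjusted p = 0.0474) and Ciart (-1.19, adjusted p = 0.0497) passed in edgeR besides Clock and Per2. Depth limits Npas2 and Ciart, with counts down to 10 in a library.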

Other observations

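Genes that respond to glucocorticoid, feeding and temperature, signals that are known to set the liver clock, were also measured. Of 8 glucocorticoid-responsive genes 4 were lower and 1 was higher, beside 55.1% of all tested genes that passed (29.0% higher, 26.0% lower). Nr3c1, which encodes the glucocorticoid receptor, fell from 104 ± 6.29 to 36.3 ± 0.244 CPM (SD, n = 3; log2 fold change -1.52, SE 0.05, edgeR adjusted p = 3.23e-06). Tsc22d3 (-1.69), which encodes GILZ, Tat (-1.59), a tyrosine aminotransferase, and Klf9 (-1.22), which encodes a Krüppel-like factor, were lower, whereas Sgk1 (4.57), a serum and glucocorticoid regulated kinase, was higher. Tsc22d3 did not pass without Sox4 1 (-1.85). All 5 also passed in the same direction with library size alone. Fkbp5, a further receptor target, was at -0.30 (SE 0.16, adjusted p = 0.0992).

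Of 11 genes of fasting and cAMP signalling 4 were higher and 1 was lower, beside the same 55.1%. Creb1, which encodes the factor that binds cAMP response elements, rose from 14.98 ± 1.58 CPM to a mean of 38.8 ± 2.36 CPM (1.37, SE 0.10, adjusted p = 2.02e-05). Sik1, a kinase that restrains its coactivators, was at 15.5 ± 4.04 CPM in EV and 84.2 ± 12.6 CPM in Sox4 (2.44, SE 0.24, adjusted p = 8.51e-06). Crtc2, which encodes such a coactivator, was lower (-0.76), though not with library size alone. Fgf21 (5.63) and Cpt1a (0.95) were higher. With a library left out Cpt1a passed only without Sox4 1, and it lay at 0.82 without EV 1, 0.94 without EV 2, 1.05 without EV 3, 0.95 without Sox4 2 and 0.57 without Sox4 3. Fgf21 was at 0.385, 0.152 and 0.436 CPM in EV and at 4.91, 14.0 and 30.6 CPM in Sox4. Of 7 tested genes that respond to temperature or heat shock 3 were higher and 1 was lower, again beside 55.1%. The cold-induced Rbm3 went from 21.2 ± 1.76 to 50.1 ± 0.862 CPM (1.24, adjusted p = 1.59e-05), and Hsp90aa1 (0.99) and Hsph1 (0.39) were higher, Hsph1 not without EV 1 (0.34) or EV 2 (0.33). Hspa1b (-2.33), which has a near-identical copy in Hspa1a, was lower.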
